A study of Mus musculus with 8 samples.

Results

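The 34 genes described here encode the scaffold of the extracellular matrix and the enzymes that crosslink or cut it. They were taken by symbol from the deposited count table, which holds 25477 genes: 5 fibrillar collagen genes, 2 collagen VI genes, 6 glycoprotein genes, 4 proteoglycan genes, 3 crosslinking enzyme genes, 9 basement membrane genes, and 5 genes of metalloproteinases and their inhibitors. Type IV collagens were left out of the list. Polyadenylated RNA was sequenced from 8 mouse retina samples, all labelled for choroidal neovascularization (CNV), in which vessels of the choroid grow towards the retina. The genotype is PD-L1 knockout for 4 samples and control for 4, with no further groups. PD-L1, encoded by Cd274, is a surface ligand that restrains immune cells carrying PD-1. Strain, age, sex, the part of Cd274 that was deleted, and how and when CNV was induced are not stated in the labels. Both groups carry the CNV label, so that no comparison with an uninjured retina can be made.

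The interstitial matrix is built from collagen fibrils, elastic microfibrils, adhesive glycoproteins and proteoglycans, mostly secreted by fibroblasts and other mesenchymal cells. Basement membranes are thin sheets of type IV collagen, laminins, nidogens and heparan sulfate proteoglycans that underlie endothelium, Müller glia and pigment epithelium. In the eye, such sheets form Bruch's membrane and the inner limiting membrane, and scarring of neovascular lesions deposits new interstitial matrix. Matrix metalloproteinases (MMPs) degrade these proteins, tissue inhibitors of metalloproteinases (TIMPs) block the MMPs, and lysyl oxidases crosslink collagen and elastin.

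The libraries held 31743404 to 36438248 counts. Cd274 had 9 to 15 counts in the knockouts and 117 to 165 in the controls, as the genotypes require. Summed levels are given in CPM (TMM-scaled). The 10 rod genes summed to 42327 to 61036 CPM, as a retina would hold. Lens genes differed between libraries: their 18 genes summed to 2763 CPM in knockout 3, 6487 CPM in control 2 and 1888 CPM in control 3, but to 4.30 to 49.1 CPM in the other 5. Control 4 stood apart from the other controls, at -6.95 on principal component 1 (31.6% of the variance) against 17.7 to 45.1 for controls 1 to 3 and -28.1 to -20.3 for the knockouts. Xist was present in all 8 libraries (2732 to 5152 CPM), and the Y-linked Eif2s3y had 0 to 6 counts. Kdm5d, also Y-linked, had 452 to 963 counts in the knockouts and 0 to 4 in the controls, so that the Y-linked genes did not give 1 answer, and the source of these reads was not tested. Whether each sample is a separate animal is not labelled, so that each p-value is set against the spread of these libraries alone, and that spread may be technical.

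Of the 34 matrix genes, 2 rose in the knockout, Timp1 and Loxl4, and none fell (edgeR quasi-likelihood test, p adjusted over all genes tested). All 34 passed the filter on low counts. Over the 16861 genes tested, 2.55% changed, 1.20% upwards and 1.35% downwards, and at that share 0.867 of 34 genes would be called. At an unadjusted p under 0.05 there were 8 of the 34 (23.5%), against 21.3% of all genes, so that the list as a whole did not stand out by this count. The median log2 fold change of knockout over control was 0.10 for the 34 genes and -0.00 for all tested genes. Of the 34, 21 were above 0 (61.8%, against 49.8% of all tested genes) and 13 below. The groups did not overlap for Timp1, Loxl4 and Timp2, each higher in the knockout, and for no gene in the lower direction; over all genes 11.0% were separated, 5.19% higher and 5.78% lower. In a bulk sample, a change in the number of cells of a type and a change in RNA per cell cannot be told apart.

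**Figure D1:**
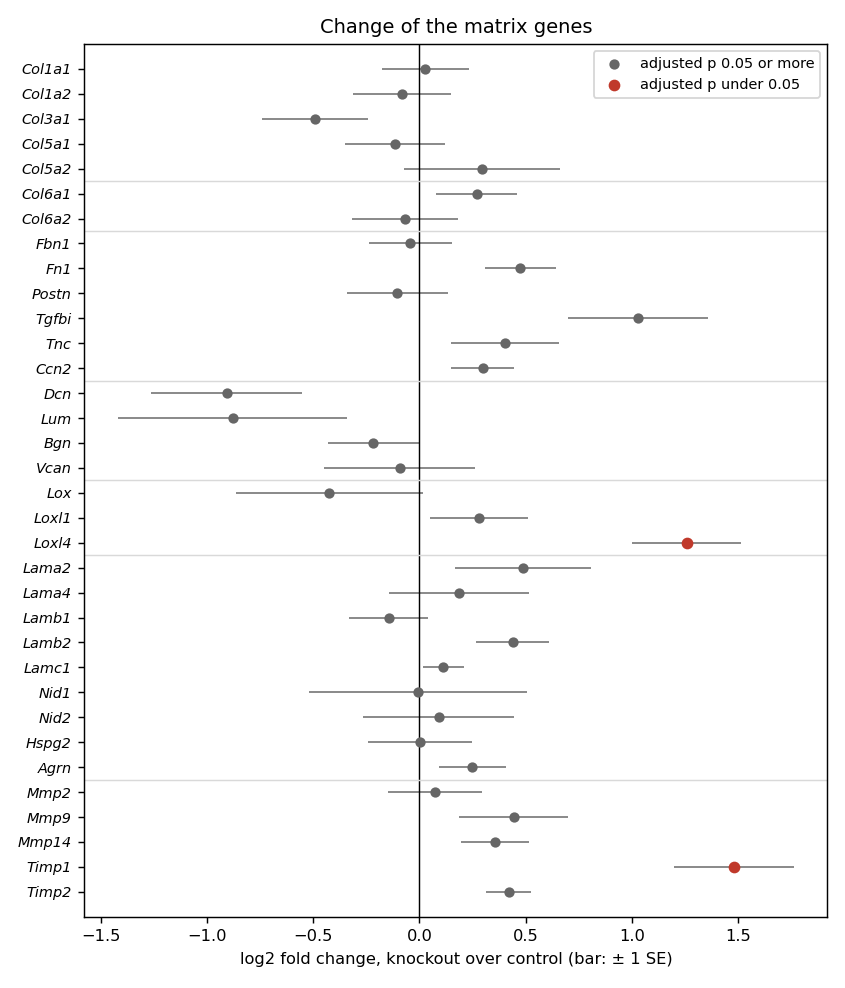
Log2 fold change of knockout over control for the 34 matrix genes, in blocks by role; points are estimates of the edgeR model and bars are ± 1 standard error. Timp1 at 1.48 and Loxl4 at 1.26 are the 2 genes past the threshold, and 21 of the 34 points lie above 0.

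The proximal promoters of the 2 genes that rose are shown because the comparison turns on them, with that of Timp2 as the family member of Timp1. Each line gives the 250 bases before the annotated start, 5′ to 3′ on the strand of the gene, from RefSeq on GRCm38.p6. Capitals mark the GC box GGGCGG on either strand.
Timp1, chrX:20869916-20870165, plus strand: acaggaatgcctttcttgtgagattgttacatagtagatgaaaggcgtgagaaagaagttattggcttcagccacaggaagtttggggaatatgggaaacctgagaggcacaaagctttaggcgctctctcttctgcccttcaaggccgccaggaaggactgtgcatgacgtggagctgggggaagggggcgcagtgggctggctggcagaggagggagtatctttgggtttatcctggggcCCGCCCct
Loxl4, chr19:42612807-42613056, minus strand: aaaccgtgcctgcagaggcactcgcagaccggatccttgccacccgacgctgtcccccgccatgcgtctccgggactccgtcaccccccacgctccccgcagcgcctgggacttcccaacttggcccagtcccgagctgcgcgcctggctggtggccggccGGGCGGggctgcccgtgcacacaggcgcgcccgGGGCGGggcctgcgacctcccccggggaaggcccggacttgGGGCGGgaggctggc
Timp2, chr11:118355412-118355661, minus strand: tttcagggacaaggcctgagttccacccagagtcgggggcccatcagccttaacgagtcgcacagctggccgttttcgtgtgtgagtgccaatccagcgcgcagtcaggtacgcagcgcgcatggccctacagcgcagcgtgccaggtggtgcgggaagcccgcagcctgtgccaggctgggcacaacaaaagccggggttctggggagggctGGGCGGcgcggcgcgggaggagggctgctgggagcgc
The Timp1 window held 1 GC box, on the opposite strand, with its first base at -8 counted from the start. The Loxl4 window held 3, at -89, -56 and -15, and the Timp2 window 1, at -37. A GC box occurred in 32.7% of all 32851 RefSeq promoter windows of the same length, and in windows of 16 of the 21 matrix genes that the table covers. The first value is a share of windows. The second counts genes with a box in any of their windows, 25 windows in all, so that the values are not directly comparable. None of the 3 windows held the AP-1 letters TGANTCA or TGAGTAA, the STAT letters TTCNNNGAA or the letters TATAAA, on either strand. Those letters occurred in 6.75%, 2.25%, 7.02% and 12.4% of all windows. Among matrix genes TGANTCA was found for Col6a1 and TTCNNNGAA for Lamb2. TATAAA was found for Col3a1, Postn and Tnc.

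Timp1 encodes a secreted inhibitor of most MMPs that is induced in reactive astrocytes and Müller glia after injury. Its gene (Entrez 21857, mm10 chromosome X, 20870166 to 20874737) lies within Syn1 on the opposite strand. No Timp1 exon overlaps a Syn1 exon in GENCODE M21. The knockout libraries 1 to 4 held 172, 96, 212 and 128 Timp1 counts, or 4.86, 2.78, 5.94 and 3.66 CPM. The control libraries 1 to 4 held 51, 65, 45 and 39 counts, or 1.60, 2.04, 1.39 and 1.15 CPM. Every knockout library was above every control, with knockout 2 nearest to the controls. Means were 4.31 ± 1.38 CPM for knockouts and 1.55 ± 0.378 CPM for controls (SD, n = 4 per group). On the log2 scale Timp1 rose by 1.48 (SE 0.28, edgeR adjusted p = 0.0182). The host gene Syn1, a synaptic vesicle gene, stood at 0.41 on that scale (SE 0.23, adjusted p = 0.314). Its level was 82.0, 93.7, 92.2 and 80.3 CPM in knockouts 1 to 4. In controls 1 to 3 Syn1 was at 63.4, 46.0 and 43.9 CPM, below every knockout, as Timp1 was. In control 4, the lowest library for Timp1, Syn1 was highest, at 109 CPM. The strand setting of the counting is not stated, and the part of Syn1 reads in the Timp1 counts was not tested. Without knockout 3, control 1 or control 3 Timp1 missed the threshold (adjusted p = 0.0799, 0.0546 and 0.0692), with a value of 1.29 in the first case and 1.42 in the last.

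The 17 reactive glia genes summed to 1120 to 1516 CPM in the knockouts and 704 to 835 CPM in the controls. Of the 16 tested 13 rose, where 1.20% of all tested genes rose. The 18 microglia and macrophage genes summed to 239 to 308 CPM in the knockouts and 135 to 209 CPM in the controls, and 8 of 18 rose. The sums of general glial markers overlapped between groups. The 12 Müller glia genes summed to 4060 to 5527 CPM in the knockouts and 3821 to 4727 CPM in the controls, and 2 rose. The 6 astrocyte genes summed to 251 to 331 CPM in the knockouts and 228 to 263 CPM in the controls, and 1 rose. The glial lists share genes, so that a call can be counted on more than 1 list. Vim is on the Müller and reactive glia lists, Gfap on the astrocyte and reactive glia lists, and Aqp4 on the Müller and astrocyte lists. None of the genes on these lists was at 0 in all libraries. Their part in the Timp1 difference was not tested.

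Timp2, the most abundant matrix transcript of the list per length, encodes an inhibitor that also takes part in activating pro-MMP2 at the cell surface together with MMP14. Its level was 101, 111, 119 and 126 CPM in the knockout libraries 1 to 4. In the controls it was 89.0, 75.2, 77.9 and 99.6 CPM. The groups were thus separate, by little between knockout 1 and control 4, but the gene did not pass the test (log2 fold change 0.42, SE 0.10, edgeR adjusted p = 0.0540). It passed without control 4 (log2 fold change 0.50, adjusted p = 0.00342), where 18.7% of all genes were called, and under 5 of the other settings tried.

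The 3 MMPs of the list did not pass. Mmp9, the gelatinase B gene, was at 13.5, 13.1, 13.9 and 9.09 CPM in knockouts 1 to 4. In the controls it was at 6.84, 6.54, 7.52 and 15.6 CPM. Control 4 was thus the highest of all 8 libraries, while controls 1 to 3 lay below every knockout (log2 fold change 0.44, SE 0.26, adjusted p = 0.335). Without control 4 the value was 0.84 (adjusted p = 0.00361), in a set where 18.7% of all genes were called. This was the only 1 of 22 alternative settings in which Mmp9 passed. Mmp14, a membrane-anchored collagenase, averaged 20.1 ± 2.49 CPM among knockouts against 15.7 ± 3.62 CPM among controls, with control 1 above 3 of the knockouts (log2 fold change 0.36, adjusted p = 0.220). Mmp2, the gelatinase A gene, lay between 2.77 and 3.65 CPM among knockouts and between 2.28 and 3.51 CPM among controls (log2 fold change 0.07, SE 0.22).

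**Figure D2:**
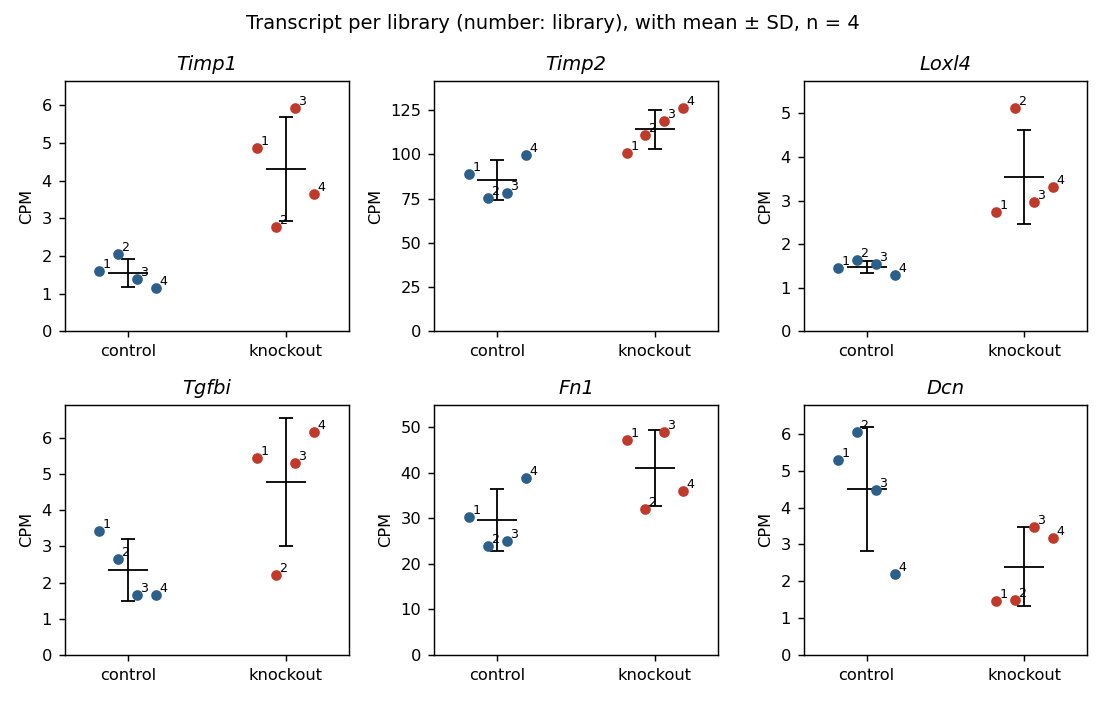
CPM of Timp1, Timp2, Loxl4, Tgfbi, Fn1 and Dcn in each library, numbered 1 to 4 in each group, with the mean and SD as bars (n = 4). The 4 knockout points lie above all controls for Timp1, Timp2 and Loxl4; for Tgfbi, Fn1 and Dcn the groups overlap.

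Loxl4 encodes a lysyl oxidase-like enzyme that crosslinks collagen. Its gene (Entrez 67573) lies on mm10 chromosome 19, 42592279 to 42612806, and overlaps no exon of another gene in GENCODE M21. It was a low transcript, with 97, 177, 106 and 116 counts in knockouts 1 to 4 and 46, 52, 50 and 44 in controls 1 to 4. These are 2.74, 5.13, 2.97 and 3.32 CPM against 1.44, 1.63, 1.54 and 1.30 CPM. The controls were close together, and the knockouts were separate from them, with knockout 2 the highest. Loxl4 rose by 1.26 on the log2 scale (SE 0.26, edgeR adjusted p = 0.0265), from 1.48 ± 0.142 to 3.54 ± 1.09 CPM (SD, n = 4 per group).

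The Loxl4 call depended on single libraries. It ended without knockout 2, 3 or 4 (log2 fold changes 1.01, 1.33 and 1.29; adjusted p = 0.0864, 0.0593 and 0.0578). It also ended without control 1, 2 or 3 (1.24, 1.31 and 1.27; adjusted p = 0.0769, 0.0612 and 0.0795). Loxl4 is the only member on the chromosome of the targeted gene, 13.2 Mb from Cd274. Within 20 Mb of Cd274, 10 of 303 tested genes rose and 3 fell, 4.29% in all, against 2.50% of the other genes with a position. Cd274 itself, low by genotype, is counted among the 303 and among those that fell. Linkage to the targeted allele and loss of the protein cannot be told apart for Loxl4 in this design.

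The other lysyl oxidase genes overlapped between groups. Lox itself lay at 0.229 to 0.588 CPM for knockouts against 0.408 to 0.690 CPM for controls, from 8 to 22 counts a library (log2 fold change -0.42, SE 0.44, adjusted p = 0.601). Loxl1, which acts on elastic fibres, was at 3.68 to 6.26 CPM and 3.11 to 5.96 CPM (0.28, SE 0.23, adjusted p = 0.498).

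**Figure D3:**
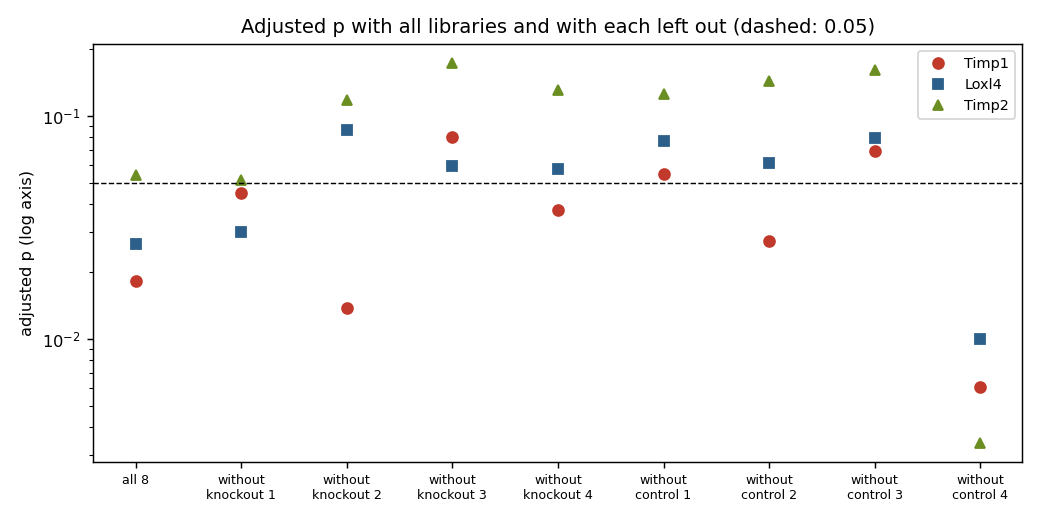
Adjusted p of Timp1, Loxl4 and Timp2 (log axis) with all 8 libraries and with each library left out; the dashed line is the threshold of 0.05. Timp1 is below the line in 5 of the 8 reduced sets, Loxl4 in 2 and Timp2 in 1, and all 3 have their lowest value without control 4.

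Fibrillar collagens, the load-bearing fibres of scar tissue, had 0 of 5 genes past the threshold, and their log2 fold changes ran from -0.49 to 0.30 with a median of -0.08. Col1a1 and Col1a2, the chains of type I collagen, had values of 0.03 (SE 0.20) and -0.08 (SE 0.23). Col1a1 was at 3.22, 3.54, 4.28 and 3.46 CPM in knockouts 1 to 4. In controls 1 to 4 it was at 3.20, 2.95, 4.56 and 3.52 CPM, so that the groups covered the same range. Col3a1, the main partner of type I collagen in young scars, spanned 3.71 to 6.67 CPM among knockouts against 4.33 to 9.61 CPM among controls (-0.49, SE 0.25, edgeR adjusted p = 0.270). Col5a1 and Col5a2, chains of the collagen that starts type I fibrils, had values of -0.12 (SE 0.24) and 0.30 (SE 0.37). Col5a2 spread over a 3.61-fold range within the knockouts, from 0.972 CPM in knockout 4 to 3.51 CPM in knockout 1.

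The 2 collagen VI genes, which encode a beaded filament network around cells, differed in level, and neither passed the test between groups. Col6a1 averaged 45.9 ± 14.7 CPM among knockouts against 38.1 ± 7.49 CPM among controls (log2 fold change 0.27, SE 0.19), and knockout 1 alone reached 67.7 CPM. Col6a2 was at 6.19 ± 2.21 and 6.48 ± 1.69 CPM (-0.07, SE 0.25), with knockout 1 again the highest library at 9.30 CPM. Compared per length in FPKM, counts divided by gene length and library size, Col6a1 stood at 9.50 ± 1.85 and Col6a2 at 1.07 ± 0.275 in the control.

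Glycoproteins of the interstitial matrix had 4 positive and 2 negative values, and none of the 6 passed. Tgfbi, a TGF-beta-induced adhesion protein of the cornea and of scars, was at 5.46, 2.20, 5.29 and 6.18 CPM in knockouts 1 to 4. In the controls it was at 3.42, 2.64, 1.66 and 1.66 CPM. Knockout 2 lay within the range of the controls, and the other 3 knockouts above it (log2 fold change 1.03, SE 0.33, edgeR adjusted p = 0.107). DESeq2, which called 5.18% of all genes, was the only 1 of 22 alternative settings to call Tgfbi (1.02, adjusted p = 0.0245). Fn1, the adhesive glycoprotein fibronectin, was at 47.1, 32.0, 49.0 and 35.9 CPM in the knockout. In the control it was at 30.4, 23.9, 25.0 and 38.8 CPM, with control 4 above knockouts 2 and 4 (0.47, SE 0.17, adjusted p = 0.138).

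Tnc, which encodes tenascin C of healing tissue, was at 10.5 to 16.4 CPM in the knockout. Controls 1 to 3 lay at 6.58 to 8.13 CPM and control 4 at 16.2 CPM (log2 fold change 0.40, SE 0.25, adjusted p = 0.377). Without control 4, Fn1 and Tnc both passed, at 0.64 and 0.78 (adjusted p = 0.00805 and 0.00535). In that set 18.7% of all genes were called, and it was the only 1 of 22 alternative settings in which either passed. Ccn2, the connective tissue growth factor and a target of TGF-beta and of YAP, averaged 29.3 ± 4.79 against 23.9 ± 4.40 CPM (0.30, SE 0.15, adjusted p = 0.262). Postn, the periostin gene of fibrotic lesions, had a value of -0.10 (SE 0.24). Fbn1, the microfibril protein fibrillin 1, had -0.04 (SE 0.20), with control 1 at 35.1 CPM and the other 7 libraries at 17.1 to 24.8 CPM.

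Small leucine-rich and large proteoglycans had negative values in 4 of 4 genes, none of which passed. Dcn, encoding decorin, which binds collagen fibrils and TGF-beta, was at 1.47, 1.48, 3.47 and 3.17 CPM in knockouts 1 to 4. In controls 1 to 4 it was at 5.30, 6.06, 4.47 and 2.19 CPM. Controls 1 to 3 were above every knockout, and control 4 was below knockouts 3 and 4 (log2 fold change -0.91, SE 0.35, edgeR adjusted p = 0.170). Without control 4, where 18.7% of all genes were called, Dcn passed (-1.13, adjusted p = 0.0192), the only 1 of 22 alternative settings in which it did. Lum, the lumican gene of cornea and sclera, rested on 5 to 25 counts a library (-0.88, SE 0.54, adjusted p = 0.361). Bgn, encoding biglycan, had a value of -0.22 (SE 0.21). Vcan, encoding the large hyaluronan-binding proteoglycan versican, had -0.09 (SE 0.36) and spread from 2.72 CPM in knockout 2 to 13.2 CPM in control 1.

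Fibroblasts secrete these proteoglycans, and their markers varied widely in level. Of the 12 fibroblast, meninges and sclera markers, 8 averaged under 1 CPM, among them Dpt (0.141 to 0.543 CPM over the 8 libraries). Higher ones were Cdh11 at 33.8 to 53.0 CPM, Pdgfra at 11.9 to 18.8 CPM and Scara5 at 1.32 to 4.51 CPM. The list summed to 185 to 211 CPM in the knockouts and 139 to 233 CPM in the controls, but 64.9% of this was Thy1, which ganglion cells also express. None of the 7 tested markers passed, and none was at 0 in all libraries. Their part in the Dcn and Lum values was not tested.

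Of the 9 basement membrane genes, none passed, 7 were positive and 2 negative, and the median log2 fold change was 0.11. Agrn, the heparan sulfate proteoglycan agrin, was the highest of them, at 165, 90.7, 104 and 100.3 CPM in knockouts 1 to 4 and 88.0 to 111 CPM in the controls (0.25, SE 0.16). Knockout 1 was thus the only library above the range of the controls. Lamc1, the gamma chain shared by most laminins, was the steadiest member, within 23.1 to 29.8 CPM over all 8 libraries (0.11, SE 0.10). Lamb2, the beta chain of laminins of the retinal inner limiting membrane, was at 13.1, 11.5, 13.9 and 14.4 CPM in the knockout. In the control it was at 11.7, 8.70, 6.87 and 11.7 CPM, with knockout 2 just below controls 1 and 4 (0.44, SE 0.17, edgeR adjusted p = 0.168). Without control 4, where 18.7% of all genes were called, Lamb2 passed (0.54, adjusted p = 0.0349), the only 1 of 22 alternative settings in which it did.

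The remaining laminin chains Lamb1, Lama2 and Lama4 had values of -0.15 (SE 0.19), 0.48 (SE 0.32) and 0.19 (SE 0.33). Lama4 belongs to the laminins of vessel walls. Hspg2, encoding perlecan, and Nid2, a laminin linker, had values of 0.00 (SE 0.25) and 0.09 (SE 0.35).

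Nid1, which links laminin to type IV collagen, spread more within the controls than any other member, and within the knockouts more than any but Lum. It was at 2.23, 2.26, 6.94 and 1.49 CPM in knockouts 1 to 4, a 4.67-fold range. In controls 1 to 4 it was at 1.41, 6.57, 3.08 and 1.95 CPM, a 4.65-fold range (log2 fold change -0.01, SE 0.51). The 3 highest libraries, knockout 3 and controls 2 and 3, were the 3 with over 100 CPM of lens transcript. The part of lens tissue in these levels was not tested.

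**Figure D4:**
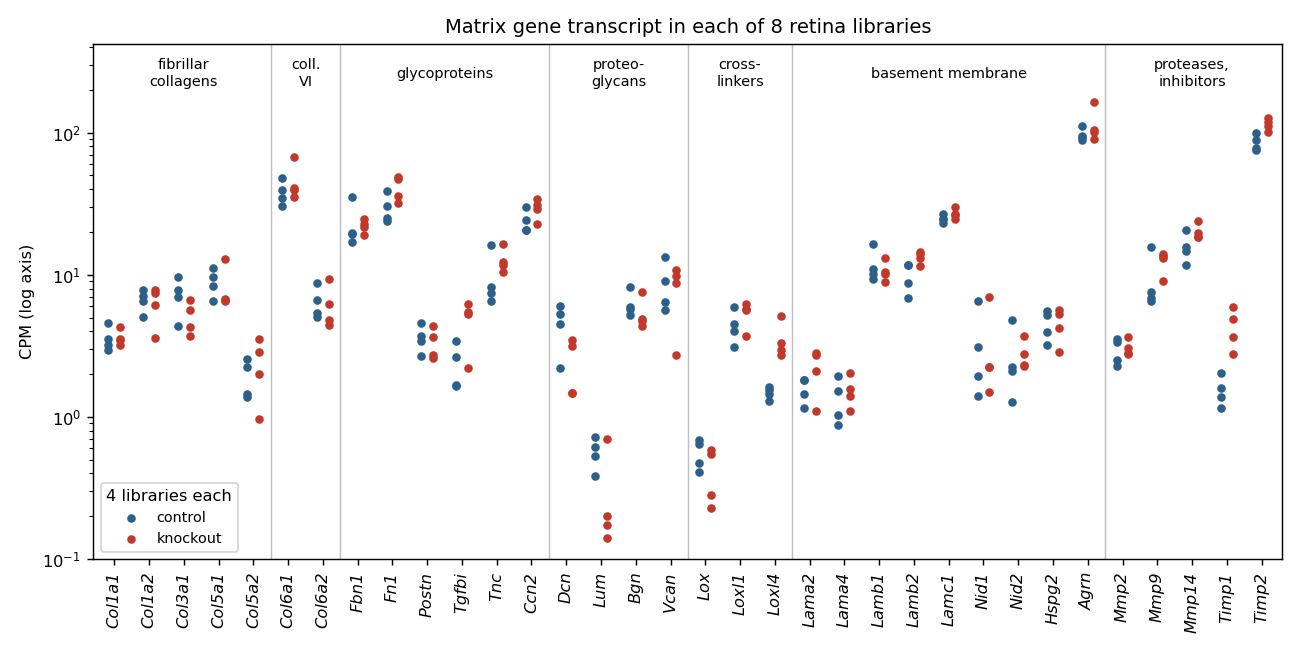
CPM on a log axis of each matrix gene in each of 4 control and 4 knockout libraries, in blocks by role. Agrn and Timp2 lie near 100 CPM and Lum and Lox under 1 CPM, and the knockout points are separate from the control points for Loxl4, Timp1 and Timp2.

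Levels between genes were compared per length, in FPKM. In the control retina Timp2 came first at 23.4 ± 3.17, above Ccn2 at 9.87 ± 1.89, Col6a1 at 9.50 ± 1.85 and Agrn at 7.58 ± 0.775 (SD, n = 4), and these last 3 overlapped between libraries. Mmp14, Fn1 and Lamc1 followed at 4.10 ± 0.980, 3.46 ± 0.808 and 3.23 ± 0.199, again with overlapping libraries. The chains of type I collagen stood much lower, at 1.26 ± 0.219 for Col1a2 and 0.596 ± 0.118 for Col1a1, and Lox was the lowest of the 34 at 0.112 ± 0.0280. Timp1 ranked 13 of 34 in the control at 1.72 ± 0.413 and 7 of 34 in the knockout at 4.87 ± 1.53. Loxl4 ranked 31 at 0.262 ± 0.0238 and 24 at 0.634 ± 0.190.

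Single libraries moved many members at once. Knockout 1 was the highest of the 8 libraries for 9 of the 34 genes, knockout 4 for 7 and control 1 for 6. Knockout 2 and controls 2 and 3 were each the lowest for 7. Against the mean of the controls, the median difference over the 34 genes was 0.27, -0.01, 0.26 and 0.10 on the log2 scale for knockouts 1 to 4. For controls 1 to 4 it was 0.07, -0.06, -0.16 and 0.02. The groups thus overlapped in this median through knockout 2. Without control 4, 8 of the 34 passed (23.5%): Timp1, Timp2, Loxl4, Fn1, Tnc, Lamb2 and Mmp9 upwards and Dcn downwards. In that reduced set 18.7% of all genes were called. Without knockout 3, control 1 or control 3 none of the 34 passed. Without the 3 libraries rich in lens transcript, chosen after seeing the data, none of the 34 and 15 of all genes passed. That set keeps only knockouts 1, 2 and 4 and controls 1 and 4. In it, the loss of libraries and the loss of lens transcript cannot be told apart.

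Other genes of matrix building and turnover were taken from 9 lists with 189 distinct genes in the table, of which 164 were tested. In the knockout 9 rose and none fell (5.49%, against 2.55% of all genes), and 114 were positive (69.5%, against 49.8% of all tested genes). The unadjusted edgeR p was under 0.05 for 38 of the 164 (23.2%, against 21.3% of all genes). By this count the lists together did not stand out. Collagen processing had 2 of 22 higher. Pcolce, which enhances the trimming of procollagen, rose by 1.04 on the log2 scale (SE 0.18, edgeR adjusted p = 0.0109), from 10.6 ± 2.92 to 21.9 ± 3.08 CPM. Plod1, a lysyl hydroxylase needed for collagen crosslinks, rose by 0.54 (adjusted p = 0.0372). Mmp17, a membrane-anchored metalloproteinase, was the only one of 24 other metalloproteinase and inhibitor genes to rise (0.71, adjusted p = 0.0175). Among 8 genes of the plasmin system, which cleaves fibrin and activates MMPs, Plat, the tissue plasminogen activator, rose by 0.75 (adjusted p = 0.0274).

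Matrix receptors were positive in 24 of 25 genes, where 49.8% of all tested genes were positive, and 2 rose. Ddr1, a collagen receptor kinase, rose by 0.54 (adjusted p = 0.0378), and Cd44, the hyaluronan receptor, which is also on the reactive glia list, by 0.53 (adjusted p = 0.0402). Of 30 other glycoprotein genes, 2 rose. Tgm2, a transglutaminase that crosslinks fibronectin, rose by 0.82 (adjusted p = 0.0174), and Thbs1, thrombospondin 1, by 1.07 (adjusted p = 0.0450). Of 20 other proteoglycan and hyaluronan genes 1 rose, the neural proteoglycan Cspg5, by 0.36 (adjusted p = 0.0280). The 9 calls did not hold in every reduced set. With 1 library left out, Pcolce missed the threshold in 1 case, without knockout 3 (adjusted p = 0.0534). With only knockouts 1, 2 and 4 and controls 1 and 4, without the 3 lens-rich libraries, all 9 missed it (adjusted p from 0.321 for Pcolce to 0.604 for Ddr1). Mmp17 and Tgm2 did so when knockout 2, 3 or 1 of controls 1 to 3 was left out (up to 0.0760 and 0.0682). Plat and Cspg5 did so when any of knockouts 2 to 4 or controls 1 to 3 was left out (up to 0.0844 and 0.103). Plod1 did so when knockout 1, 3, 4 or 1 of controls 1 to 3 was left out (up to 0.142), and Ddr1 without any library but control 4 (up to 0.138). Cd44 did so when knockout 3, 4 or 1 of controls 1 to 3 was left out (up to 0.153), while Thbs1 did so without any of knockouts 2 to 4 and controls 2 and 3 (up to 0.136).

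Lists with no call were the other collagens, the other laminins and the myofibroblast genes. Among 20 other collagens, 10 were positive and 10 negative. Col2a1, a fibrillar collagen of vitreous and cartilage, was at -0.47 on the log2 scale (adjusted p = 0.108), and Col8a1, a short-chain collagen, at 0.65 (adjusted p = 0.208). Among 6 other laminin chains, Lama3 was at -0.79 (adjusted p = 0.0999). Among 10 genes of myofibroblasts and the mesenchymal response, the median was -0.08. Fap, a fibroblast activation protease, was at 0.68 (adjusted p = 0.213).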

How the data were processed

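Retina libraries of polyadenylated RNA were compared, 4 of PD-L1 knockout and 4 of control, matched to columns by title. The submitters' processing notes name mm10, HTSeq, HISAT2 and fastp. Versions, annotation and strand setting are not stated there. The deposited table of whole read counts is not normalized, and the deposited FPKM table was scaled by the authors to gene length and library total. For 9 matrix genes (Ccn2, Col5a1, Fbn1, Fn1, Lama2, Lox, Nid1, Nid2 and Tnc) an exon overlaps an opposite-strand gene in GENCODE M21, whose reads cannot be told apart.

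Counts were tested with edgeR 4.0.16 in R 4.3.3 (TMM, filterByExpr with a minimum count of 10 and total of 15, quasi-likelihood test, Benjamini-Hochberg over 16861 genes, threshold 0.05), checked on simulated data. A standard error (SE) is the log2 fold change over the root of the F statistic. FPKM served only to compare levels between genes and, as log2(FPKM + 1) or log2(FPKM + 0.1) in limma 3.58.1, as alternatives. PCR duplicates cannot be seen in counts.

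The members, lists and the rule for named genes were chosen with earlier results of these data known. The rule takes all 34 matrix genes and, from each other matrix list, up to 3 called genes of smallest p, or else the 2 with the smallest p. Of the genes this rule names, 2 are not reported here. Cell type markers are given as summed levels. Leukocyte, pigment epithelium, vascular and red cell markers were fixed too, and are given with the limits. Alternatives were other scalings, filters and tools (DESeq2 1.42.0), each library left out and the title number as a block.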

Additional observations from a re-analysis of the deposited data

Results flagged for a closer look

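Among 68 groups of 4 libraries (34 genes in 2 groups), 9 held a library far from the other 3. The rule is set to flag about 1 in 20 groups. These groups share the same 8 libraries, so that the 9 cannot be read as an excess over that rate. Knockout 1 was high for Col5a1, at 12.9 CPM against 6.58 to 6.72 CPM, and for Col6a1, at 67.7 CPM against 35.5 to 41.0 CPM. Knockout 3 was high for Lum (0.700 CPM against 0.141 to 0.200 CPM), Bgn (7.50 against 4.38 to 4.90 CPM) and Nid1 (6.94 against 1.49 to 2.26 CPM). This library also held 2763 CPM of lens transcript, and its part in these 3 values was not tested. Knockout 4 was low for Mmp9, at 9.09 CPM against 13.1 to 13.9 CPM. Control 1 was high for Fbn1, at 35.1 CPM against 17.1 to 19.6 CPM. Control 4 was high for Tnc, at 16.2 CPM against 6.58 to 8.13 CPM, and for Mmp9, at 15.6 CPM against 6.54 to 7.52 CPM.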

How the results depend on the processing

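The number of genes called, 430, became 228 with the replicate block and 228 with log2(FPKM + 1), 51 with log2(FPKM + 1) and no filter, 690 with no filter on low counts and 1320 with DESeq2. With a library left out the number ran from 108 to 3209. After seeing the data, 2 settings were added. In these, 15 genes passed without the 3 libraries rich in lens transcript and 267 with the log2 lens sum as a covariate. The first keeps only knockouts 1, 2 and 4 and controls 1 and 4. Of the matrix genes 2 passed in the main setting, 4 with DESeq2, 1 with log2(FPKM + 1), 0 with log2(FPKM + 1) and no filter, 0 to 8 with a library left out, 0 without the lens-rich libraries and 1 with the lens covariate. With the replicate block both Timp1 and Loxl4 passed (adjusted p = 0.0486 each). The labels do not say whether the title numbers pair the samples. Deviations of same-numbered libraries correlated at 0.21, -0.04, 0.12 and 0.01, and 1 of the 4 knockouts correlated best with its own number. With so few libraries these values cannot settle whether samples were paired. Timp1 passed in 17 of 22 alternatives (log2 fold change 1.08 to 1.65), and Loxl4 in 12 of 22 (0.37 to 1.45, the lowest on log2(FPKM + 1), which shrinks low genes). Timp2 passed in 6 of 22, with adjusted p between 0.00342 and 0.687. The matrix median stayed between 0.02 and 0.21. For 13 of the 34 genes, all within 1 SE of 0, the sign changed in at least 1 alternative, most often for Hspg2 (10), Fbn1 (7) and Nid1 (7).

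Markers of other cells bear on these limits. Endothelial genes summed to 302 to 324 CPM in the knockouts and 221 to 311 CPM in the controls, pericyte genes to 80.0 to 89.5 and 82.5 to 98.8 CPM, and pigment epithelium genes to 476 to 795 and 440 to 704 CPM. Much of each sum was a single gene, in this order Kdr (54.4%), Rgs5 (69.8%) and Rlbp1 (62.6%). Rlbp1 is also on the Müller glia list, so that the last sum is not a level of pigment epithelium alone. Of the tested genes, 1 of 13 endothelial, 0 of 10 pericyte and 1 of 12 pigment epithelium genes rose, where 1.20% of all tested genes rose. Monocyte and neutrophil markers other than Fn1 averaged under 1 CPM, 8 genes of 8 in the table. Red cell genes summed to 1.68 to 4.03 CPM in the knockouts and 10.1 to 14.5 CPM in the controls. All 4 tested red cell genes fell, where 1.35% of all tested genes fell. The part of all these cells in the matrix values was not tested.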

Other observations

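The deposited annotation gives the Gene Ontology term collagen-containing extracellular matrix to 286 genes, 29 of the 34 matrix genes among them. Of these, 244 were tested, 12 rose and 2 fell in the knockout (5.74%, against 2.55% of all genes), and the median log2 fold change was 0.20. The unadjusted edgeR p was under 0.05 for 59 of the 244 (24.2%, against 21.3% of all genes). The 2 that fell were the basement membrane collagen genes Col4a3 (-1.26, edgeR adjusted p = 0.000198) and Col4a4 (-0.83, adjusted p = 0.0109). Among the 12 that rose, those with the smallest p were Serping1, the C1 inhibitor (1.48, adjusted p = 0.00113), Ctsd, a lysosomal protease (0.68, adjusted p = 0.00481), and Htra1, a secreted serine protease that cleaves matrix proteins (0.61, adjusted p = 0.00813). Among these 14, Loxl4 is 1 of the 34 matrix genes, and Tgm2, Plod1 and Thbs1 are on the other matrix lists. These genes and the term were chosen after their values were seen.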
